A study of Mus musculus with 18 samples.

Results

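The genes described here encode 10 transcription factors and cofactors that work together in erythroid cells: Gata1, its cofactor Zfpm1 (FOG1), the basic helix-loop-helix factors Tal1 and Lyl1, the bridging proteins Lmo2 and Ldb1, the corepressor Cbfa2t3 (ETO2), the repressor Gfi1b, and the leucine zipper factors Nfe2 and Bach1. They were taken by symbol from the deposited count table, where they are 10 of 23365 gene rows, and all 10 were among the 13405 rows with enough counts to be tested. The libraries came from CD71 and TER119 positive erythroblasts, sorted from the spleens of mice that differ in the 2 alleles of Klf1. These alleles are wild type (WT), knockout (KO) and D45, a missense allele that the series title places in linker-2, between the zinc fingers of KLF1. The 5 genotypes were D45/KO with 4 libraries, D45/D45 with 3, WT/KO with 5, WT/D45 with 3 and WT/WT with 3. Per the series design the replicates were biological, and compound heterozygotes, here D45/KO, had haemolytic anaemia with an enlarged spleen and more splenic erythroid progenitors. The labels give no age, sex or strain, nor the nature of the KO lesion.

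GATA1 is the zinc finger factor that drives erythroid maturation, and most active erythroid genes are bound by it together with TAL1, LMO2 and LDB1 at paired GATA and E-box sites. FOG1 binds GATA1 directly, while ETO2 and GFI1B bring corepressors to the same genes. NFE2 and BACH1 pair with small Maf proteins and compete for the same sites, with BACH1 acting as a repressor that haem removes from DNA. KLF1 binds CACC boxes near many of the genes these factors also control.

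Total counts, in units of 1e+06, ran from 9.36 to 56.3 per library, with a median of 29.8. Levels are CPM, counts per 1e+06 counts, after TMM scaling of library sizes. Klf1 itself was at 585, 282, 676 and 763 CPM in D45/KO, 710, 1576 and 1394 CPM in D45/D45, 230, 158, 191, 659 and 834 CPM in WT/KO, 551, 1101 and 1295 CPM in WT/D45 and 452, 1047 and 964 CPM in WT/WT. Cd79a, which encodes a chain of the B cell receptor, divided the libraries: 9 had 22.0 to 219 CPM and the other 9 had 0 to 2.22 CPM. Cd79a-rich libraries were 3 of 4 in D45/KO (22.0 to 85.2 CPM), 1 of 3 in D45/D45, 3 of 5 in WT/KO (195 to 219 CPM), 1 of 3 in WT/D45 and 1 of 3 in WT/WT. Each comparison was therefore made with genotype alone and again with the log2 CPM of Cd79a in the same library as a covariate. Cd79a also went with the mouse number in the labels. Every library from a mouse numbered under 200 was Cd79a-rich, and every Cd79a-poor library came from a mouse numbered above 200. Only replicate 2 of D45/KO and replicate 2 of WT/KO were Cd79a-rich with a number above 200. A fit with genotype and Cd79a does not separate Cd79a from the mouse number. The TMM factors ran from 1.09 to 1.93 in the 9 Cd79a-rich libraries and from 0.366 to 0.954 in the 9 others. The scaling of the libraries thus went with Cd79a. Of the 12 erythroblast markers none was at 0 throughout any genotype, and their summed level ran from 30564 CPM in WT/KO to 755123 CPM in WT/WT. After TMM scaling such a sum is not a share of the counts. WT/WT replicate 3, with the lowest TMM factor of 0.366, held 23.4% globin counts. The 7 endothelial markers summed to at most 4.80 CPM and the 7 mast cell and basophil markers to at most 16.5 CPM. Other lineages were less scarce. The 10 macrophage markers summed to 91.8 to 2799 CPM in D45/KO and 103 to 2475 CPM in WT/KO, against 75.0 to 431 CPM in the other genotypes. The 10 neutrophil markers summed to at most 275 CPM, in WT/WT.

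RefSeq promoter windows were at hand for 8 of the 10 genes, 12 windows in all, and the 250 bases before the annotated start were searched on both strands for the letters CCNCNCCC, a CACC-type box of the kind KLF1 binds. Windows for Lmo2 and Nfe2 were not used here. The windows of 4 genes are shown, those called higher in D45/KO than in WT/KO with the Cd79a covariate. With genotype alone 0 of the 10 genes were called. Each window is written 5′ to 3′ along the strand of its gene, with CCNCNCCC matches in capitals. On GRCm38.p6 they are chr16:87698704-87698953 on the plus strand for Bach1, chr8:84701207-84701456 on the plus strand for Lyl1, chrX:7967911-7968160 on the minus strand for Gata1, and chr8:122678176-122678425 and chr8:122699110-122699359, both on the minus strand, for 2 starts of Cbfa2t3.
Bach1: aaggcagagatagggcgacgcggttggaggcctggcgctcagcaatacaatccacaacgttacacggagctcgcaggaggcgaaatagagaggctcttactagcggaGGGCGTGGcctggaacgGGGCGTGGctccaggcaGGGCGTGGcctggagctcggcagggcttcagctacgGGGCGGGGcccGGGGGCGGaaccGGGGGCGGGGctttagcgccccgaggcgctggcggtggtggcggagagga
Lyl1: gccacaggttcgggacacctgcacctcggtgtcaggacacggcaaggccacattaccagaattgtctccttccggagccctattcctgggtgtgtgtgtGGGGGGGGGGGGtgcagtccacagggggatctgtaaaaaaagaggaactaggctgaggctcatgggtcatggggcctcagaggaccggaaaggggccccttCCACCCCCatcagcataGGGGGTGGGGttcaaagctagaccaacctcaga
Gata1: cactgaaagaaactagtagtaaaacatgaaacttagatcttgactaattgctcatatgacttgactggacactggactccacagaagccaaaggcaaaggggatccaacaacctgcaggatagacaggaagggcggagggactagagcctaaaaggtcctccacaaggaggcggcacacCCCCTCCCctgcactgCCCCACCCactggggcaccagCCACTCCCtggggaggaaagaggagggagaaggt
Cbfa2t3 first start: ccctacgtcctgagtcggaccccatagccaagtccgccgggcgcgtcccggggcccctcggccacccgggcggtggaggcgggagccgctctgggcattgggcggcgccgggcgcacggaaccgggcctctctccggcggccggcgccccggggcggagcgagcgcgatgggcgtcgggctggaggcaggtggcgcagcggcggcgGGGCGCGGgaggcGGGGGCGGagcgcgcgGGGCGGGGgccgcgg
Cbfa2t3 second start: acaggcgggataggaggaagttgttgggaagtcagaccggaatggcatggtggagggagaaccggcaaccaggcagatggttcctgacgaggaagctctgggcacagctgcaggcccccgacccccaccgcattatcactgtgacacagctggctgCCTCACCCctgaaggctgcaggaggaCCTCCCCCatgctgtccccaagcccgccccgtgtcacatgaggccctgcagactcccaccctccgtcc
The motif was found 7 times before Bach1, 8 times before Lyl1, 3 times before Gata1, and 3 and 2 times before the starts of Cbfa2t3, with overlapping matches counted separately. Several of the Lyl1 matches are shifted frames of an unbroken run of G, which holds no CACC on either strand. In all, 11 of the 12 windows and all 8 genes held it, against 45.9% of 32817 RefSeq windows of the same length. GATA motifs (AGATAA, or these letters with T in first place, G in last place or both) were in 5 of the 12 windows, against 26.6% of all windows, and E-boxes (CANNTG) in 6 of the 12, against 66.2%. No CCNCNCCC match in these windows overlapped a GATA motif or an E-box. The NF-E2 motif TGANTCA was in 0 of the 12 windows, against 6.75% of all windows. GC-rich promoters hold such letters often, so the matches describe the sequence and were not tested for binding.

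Compared per kilobase of exon, Lmo2, Zfpm1 and Tal1 were among the 4 most abundant transcripts of the set in both D45/KO and WT/WT, and Bach1 was the least abundant in both. In D45/KO the level per kilobase was 318 ± 174 CPM for Zfpm1, 270 ± 101 CPM for Lmo2, 245 ± 91.7 CPM for Tal1, 207 ± 71.3 CPM for Gata1, 191 ± 83.1 CPM for Nfe2 and 150 ± 52.4 CPM for Lyl1 (SD, n = 4 each). Below them came Gfi1b at 67.3 ± 27.0 CPM, Cbfa2t3 at 30.2 ± 13.2 CPM, Ldb1 at 25.2 ± 5.03 CPM and Bach1 at 18.1 ± 2.50 CPM per kilobase (SD, n = 4 each). In WT/WT the order began with Lmo2 at 494 ± 361 CPM, Nfe2 at 321 ± 203 CPM, Tal1 at 249 ± 119 CPM and Zfpm1 at 220 ± 106 CPM per kilobase (SD, n = 3 each). Neighbours among these leading genes differed by less than the spread between libraries, as did Cbfa2t3, Ldb1 and Bach1 in WT/WT at 11.3 ± 6.89, 16.5 ± 4.49 and 11.3 ± 3.92 CPM per kilobase (SD, n = 3 each). The genes lie on 7 chromosomes. Lyl1, Zfpm1 and Cbfa2t3 share chromosome 8 with Klf1, with 8 protein-coding genes between Lyl1 and Klf1, 341 between Zfpm1 and Klf1 and 357 between Cbfa2t3 and Klf1.

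In TMM-scaled CPM, 9 of the 10 genes fell across the 5 genotypes as Cd79a rose. Unscaled, the order could turn. Gata1 in WT/WT had 8255 counts of 23138700 in the Cd79a-rich library, and 4312 of 20746100 and 3930 of 23460500 in the others. In D45/KO it did not turn, with 26071 of 36327700 in the Cd79a-poor library and 27913 of 43330800 in replicate 1, the highest of the Cd79a-rich. The part of the scaling in the fall and in the slopes was not tested. The median level of Nfe2 was 284 CPM in the 9 Cd79a-rich libraries and 1196 CPM in the 9 others, that of Lmo2 292 and 1228 CPM, that of Tal1 504 and 1501 CPM and that of Gata1 221 and 522 CPM. Smaller gaps were seen for Bach1, with medians of 42.6 CPM in Cd79a-rich and 79.4 CPM in other libraries, and for Cbfa2t3, with 109 and 138 CPM. Ldb1, the dimerising scaffold of the complex, was level at 104 CPM in Cd79a-rich and 103 CPM in other libraries. In the fit with genotype and Cd79a, each log2 unit of Cd79a went with a change in log2 level of −0.24 ± 0.02 for Nfe2, −0.22 ± 0.02 for Lmo2, −0.19 ± 0.02 for Tal1, −0.16 ± 0.02 for Gata1, −0.15 ± 0.02 for Lyl1, −0.14 ± 0.03 for Zfpm1, −0.13 ± 0.03 for Gfi1b and Cbfa2t3 and −0.09 ± 0.02 for Bach1 (slope ± SE, 18 libraries). These 9 slopes had adjusted p-values from 4.61e-07 for Nfe2 to 0.00207 for Cbfa2t3 in edgeR's quasi-likelihood test with Benjamini-Hochberg adjustment over 13405 genes, while that of Ldb1 was 0.909. A negative slope was common: 24.0% of all genes tested were called lower with Cd79a, 29.4% higher and 53.4% were called in either direction. All 21 tested genes of a list of GATA1-activated erythroid genes and all 11 tested erythroblast markers also fell with Cd79a. In bulk libraries fewer erythroblasts and less RNA per erythroblast cannot be told apart. Within the 9 Cd79a-poor libraries alone, or the 9 Cd79a-rich ones alone, 0 of the 10 slopes were called by the same test, so the slope rests on the contrast between the 2 sets of libraries. The mouse number largely divides the same sets, so this slope cannot be told apart from a difference that goes with the mouse number.

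**Figure D1:**
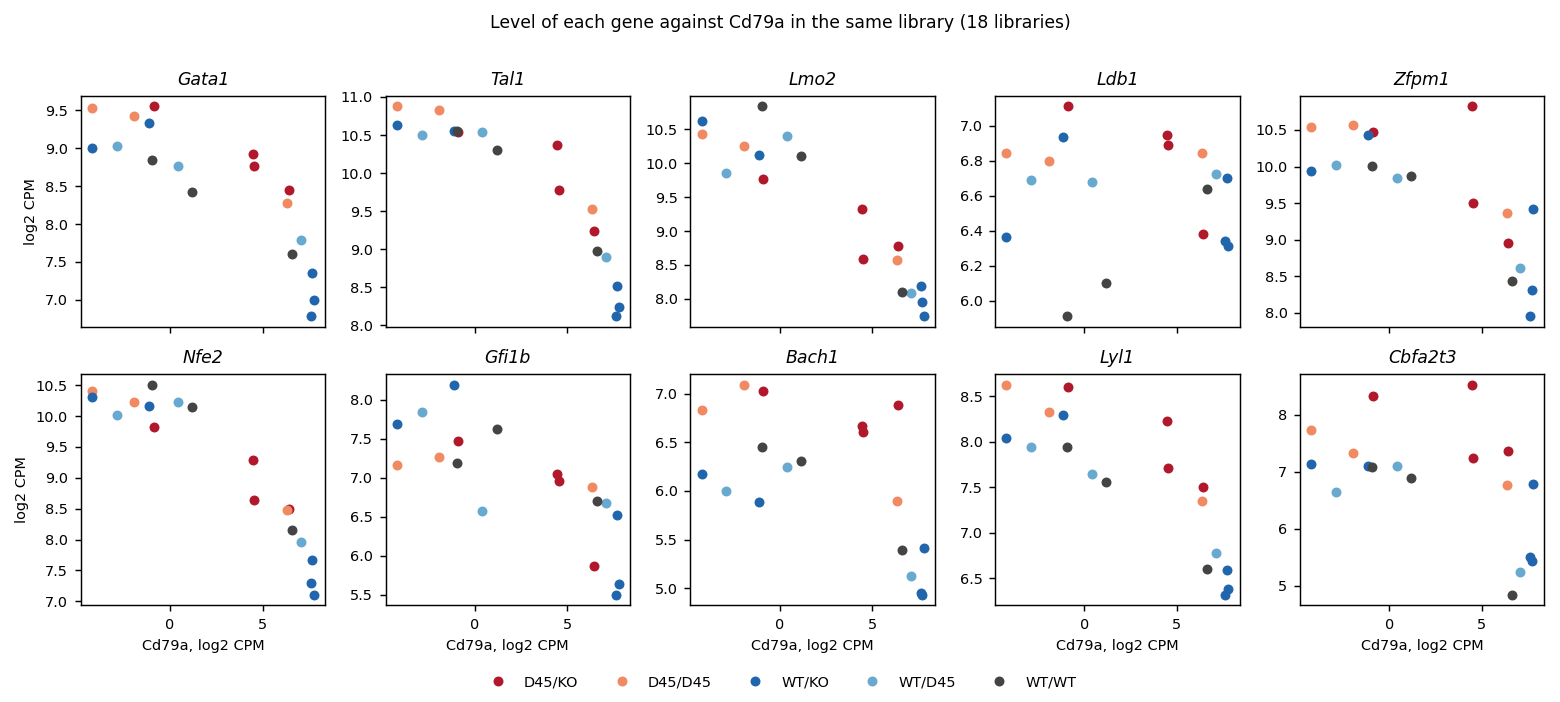
Level of each of the 10 genes (vertical axis, log2 CPM) against Cd79a in the same library (horizontal axis, log2 CPM), 1 point per library, coloured by genotype. For 9 genes the Cd79a-rich libraries on the right are lower, most for Nfe2 with a slope of −0.24 per log2 unit, whereas the Ldb1 points are level.

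The comparison of D45/KO with WT/KO sets the D45 allele against a wild-type allele where the other copy is a knockout. As D45/KO mice had haemolytic anaemia and an enlarged spleen, allele and anaemia cannot be told apart in any comparison with D45/KO. Bach1, Cbfa2t3, Gata1 and Lyl1 were higher in D45/KO once Cd79a was in the fit, by log2 fold changes from 0.89 to 1.47. With genotype alone 0 of the 10 genes were called, while 0.172% of all genes tested were called, 0.112% higher and 0.0597% lower, and 2 of the 10 had an unadjusted p under 0.05. With the covariate 4 of the 10 were called higher and 0 lower, against 2.51% of all genes called higher, 0.679% lower and 3.19% in either direction. All 10 log2 fold changes were then above 0 with a median of 0.78, beside a median of −0.03 over all genes tested and 48.0% of genes above 0. Markers of erythroblasts leaned the same way, with 9 of 11 above 0 and a median of 0.57. With the mean of these markers as covariate in place of Cd79a, fewer of the 10 genes were called, as given below. Their part in the levels of the 10 genes was otherwise not tested. By role, the 4 genes called with Cd79a were a repressor, a corepressor, a GATA factor and a helix-loop-helix factor, and each is taken in turn.

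Among the factors at GATA sites, Gata1 was at 434, 349, 485 and 752 CPM in D45/KO, against 164.1, 110, 127, 514 and 645 CPM in WT/KO. The D45/KO libraries lay above the 3 Cd79a-rich WT/KO libraries but overlapped the 2 Cd79a-poor ones. In D45/D45 it was at 311, 738 and 690 CPM, in WT/D45 at 221, 436 and 522 CPM and in WT/WT at 194, 341 and 458 CPM. Against WT/KO the log2 fold change of Gata1 in D45/KO was 0.69 ± 0.52 with genotype alone (adjusted p = 0.927) and 0.99 ± 0.21 with Cd79a (adjusted p = 0.0124). Zfpm1, the FOG1 cofactor of GATA1, had 725, 498, 1816 and 1423 CPM in D45/KO, against 318, 247, 685, 984 and 1375 CPM in WT/KO, and the groups overlapped widely. Its log2 fold change was 0.63 ± 0.56 with genotype alone and 0.76 ± 0.34 with Cd79a, and neither was called (adjusted p = 0.927 and 0.276).

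For the helix-loop-helix and bridging members, Lyl1, a close relative of Tal1, was at 209, 181, 299 and 389 CPM in D45/KO, against 96.0, 79.5, 82.9, 264 and 313 CPM in WT/KO. As for Gata1, its D45/KO libraries lay above the 3 Cd79a-rich WT/KO libraries and overlapped the others. The log2 fold change of Lyl1 was 0.69 ± 0.46 with genotype alone (adjusted p = 0.927) and 0.89 ± 0.18 with Cd79a (adjusted p = 0.00836). Tal1, the partner of LMO2 at E-boxes, was at 879, 607, 1319 and 1484 CPM in D45/KO, against 367, 278, 304, 1589.8 and 1501 CPM in WT/KO. Its log2 fold change of 0.80 ± 0.24 with Cd79a was not called (adjusted p = 0.0874), nor was 0.41 ± 0.61 with genotype alone (adjusted p = 0.929). Lmo2, the LIM-only adaptor, spanned 386 to 869 CPM in D45/KO against 214 to 1578 CPM in WT/KO, and had log2 fold changes of −0.24 ± 0.69 with genotype alone and 0.24 ± 0.28 with Cd79a. Ldb1 spanned 83.5 to 138 CPM in D45/KO against 79.4 to 122 CPM in WT/KO, with a log2 fold change of 0.30 in both fits (SE 0.21 with genotype alone and 0.19 with Cd79a). Neither Lmo2 nor Ldb1 was called in either fit.

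Of the repressive members, Cbfa2t3, which encodes ETO2, was at 151, 166.1, 371 and 322 CPM in D45/KO, against 43.4, 45.4, 110, 140 and 138 CPM in WT/KO. The 2 groups did not overlap. Its other levels were 109, 214 and 162 CPM in D45/D45, 37.8, 137 and 100.2 CPM in WT/D45 and 28.6, 119 and 136 CPM in WT/WT. Against WT/KO the log2 fold change of Cbfa2t3 in D45/KO was 1.40 ± 0.50 with genotype alone (adjusted p = 0.619) and 1.47 ± 0.34 with Cd79a (adjusted p = 0.0212), a 2.78-fold difference. Gfi1b, whose product recruits the demethylase LSD1, spanned 58.1 to 178 CPM in D45/KO against 45.03 to 293 CPM in WT/KO. Its log2 fold changes of −0.16 ± 0.50 with genotype alone and 0.06 ± 0.32 with Cd79a were not called.

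Bach1, the haem-responsive repressor, was at 97.1, 118, 102 and 131 CPM in D45/KO, against 30.4, 31.0, 42.6, 72.3 and 59.0 CPM in WT/KO. No D45/KO library overlapped a WT/KO library, so 2 of the 10 genes, Bach1 and Cbfa2t3, had separate groups, against 1.78% of all genes tested with D45/KO above WT/KO throughout. In D45/D45 Bach1 was at 59.6, 114 and 137 CPM, in WT/D45 at 34.8, 75.8 and 63.8 CPM and in WT/WT at 42.0, 79.4 and 87.4 CPM. Its log2 fold change in D45/KO over WT/KO was 1.25 ± 0.33 with genotype alone (adjusted p = 0.258) and 1.34 ± 0.18 with Cd79a (adjusted p = 3.99e-04), a 2.53-fold difference. Nfe2, which activates genes through the sites BACH1 also binds, was at 400.1, 362, 624 and 902 CPM in D45/KO, against 204, 157, 138, 1266 and 1143 CPM in WT/KO. The Nfe2 levels overlapped, and log2 fold changes of −0.02 ± 0.73 with genotype alone and 0.57 ± 0.26 with Cd79a were not called (adjusted p = 0.999 and 0.296).

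**Figure D2:**
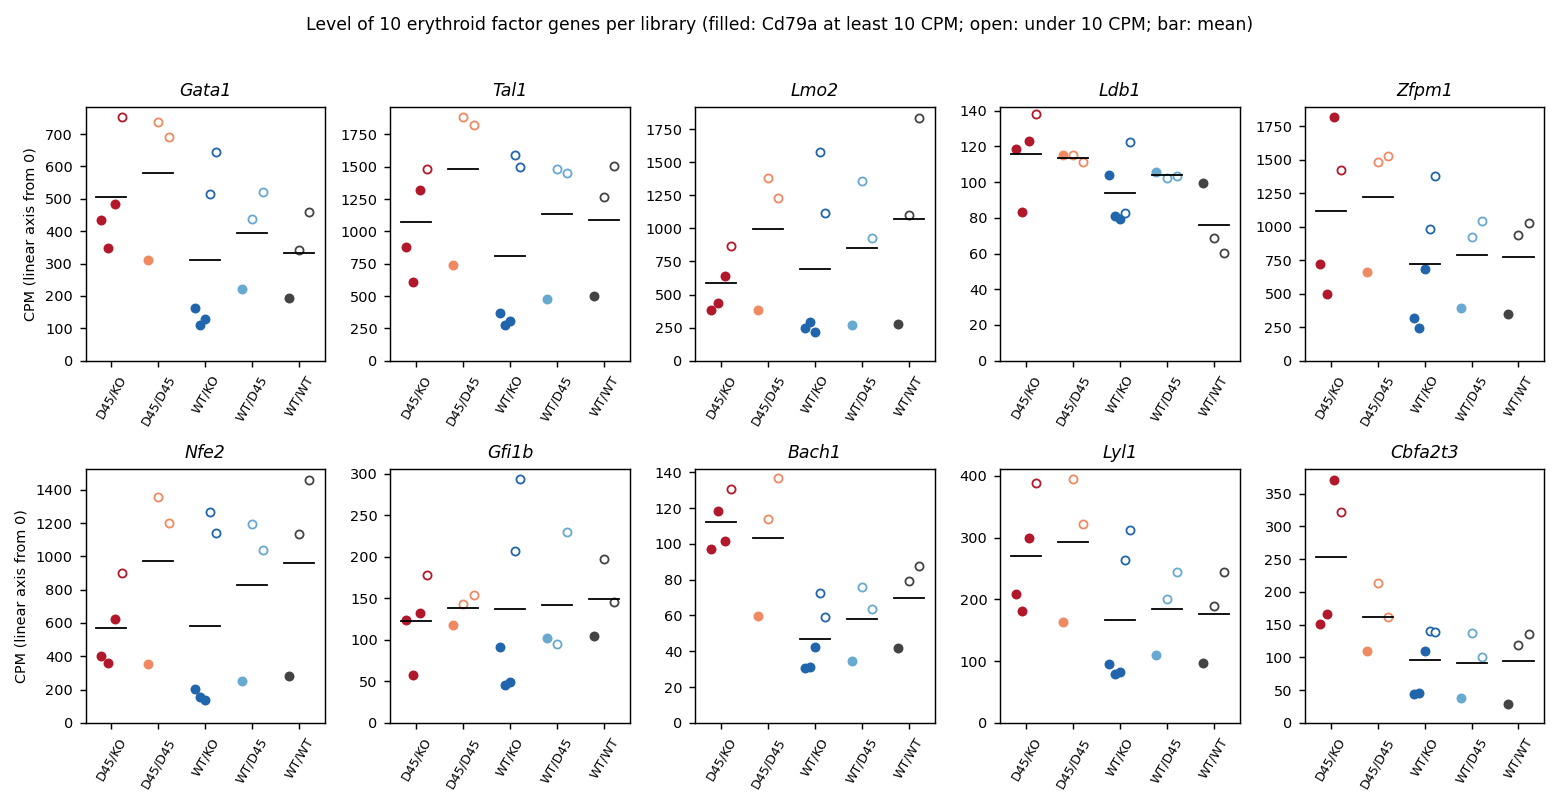
Level of the 10 genes in each of the 18 libraries (CPM, linear axis from 0) by genotype, with bars at the genotype mean and filled points for libraries with at least 10 CPM of Cd79a. Bach1 and Cbfa2t3 in D45/KO lie above all WT/KO and WT/WT libraries, while the filled points of the other genes except Ldb1 sit mostly below the open ones of their genotype.

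Leaving out each D45/KO or WT/KO library in turn kept Bach1, Gata1 and Lyl1 called in 9 of 9 fits with Cd79a. Cbfa2t3 was called in 5 of 9: without D45/KO replicate 3, or without WT/KO replicate 1, 2 or 4, its adjusted p ran from 0.0599 to 0.0808. Within the Cd79a-rich libraries alone, where 3 D45/KO and 3 WT/KO libraries remain, the genotype-only log2 fold changes were 1.66 ± 0.26 for Bach1, 1.70 ± 0.28 for Gata1, 1.46 ± 0.27 for Lyl1, 1.83 ± 0.45 for Cbfa2t3, 1.60 ± 0.35 for Tal1 and 1.52 ± 0.31 for Nfe2 (edgeR adjusted p from 0.0101 to 0.0367). Those D45/KO libraries still held less Cd79a, 22.0 to 85.2 CPM, than the WT/KO libraries, 195 to 219 CPM, and with Cd79a in the same restricted fit 0 of the 10 genes were called. Within the Cd79a-poor libraries, with 1 D45/KO and 2 WT/KO, the genotype-only values were 1.04 ± 0.29 for Bach1, 1.25 ± 0.30 for Cbfa2t3, 0.42 ± 0.32 for Gata1 and 0.48 ± 0.30 for Lyl1, and none was called (adjusted p from 0.0909 to 1). The lone D45/KO library is there assumed to vary like the other groups. Calls in these restricted fits were not set beside the share of all genes called in them.

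**Figure D3:**
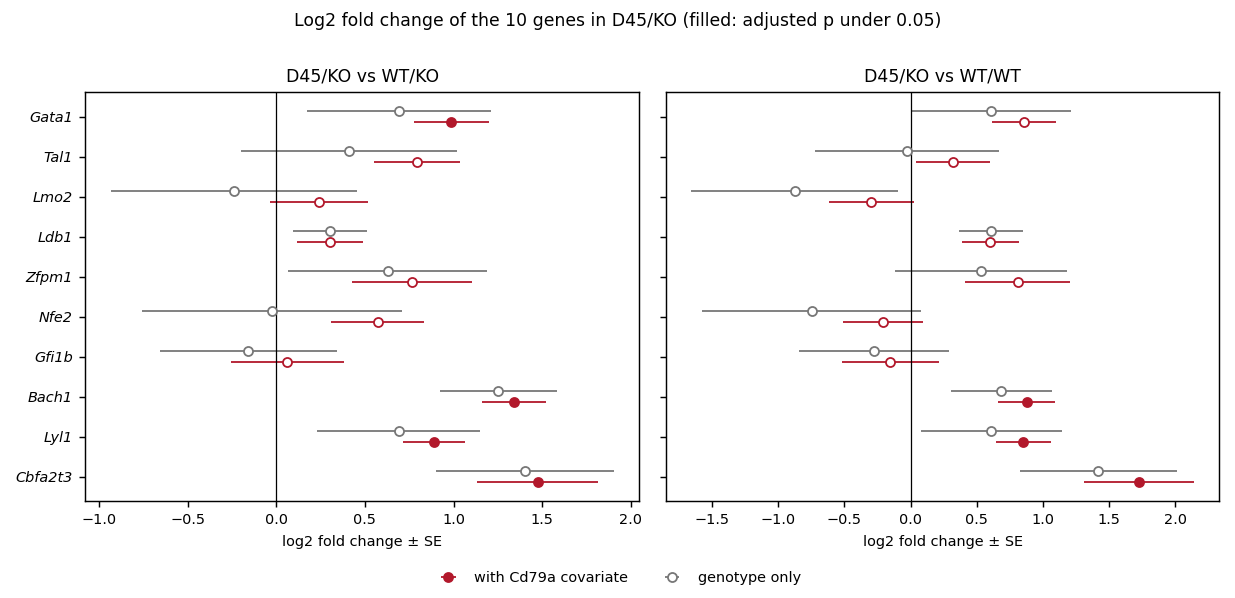
Log2 fold change ± SE of the 10 genes in D45/KO over WT/KO (left) and over WT/WT (right), from the fit with the Cd79a covariate (red) and the genotype-only fit (grey), with filled points where the adjusted p was under 0.05. Red intervals are narrower than grey ones for all 10 genes on the left, and the 4 filled points there are Gata1, Bach1, Lyl1 and Cbfa2t3.

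Set against WT/WT, D45/KO erythroblasts again had more Cbfa2t3, Bach1 and Lyl1 in the fit with Cd79a. The log2 fold change was 1.73 ± 0.42 for Cbfa2t3 (adjusted p = 0.0240), 0.88 ± 0.21 for Bach1 (adjusted p = 0.0253) and 0.85 ± 0.21 for Lyl1 (adjusted p = 0.0254), while Gata1 at 0.86 ± 0.25 was not called (adjusted p = 0.0622). These are 3 of the 10 genes called higher and 0 called lower, against 2.12% of all genes called higher, 1.56% lower and 3.68% in either direction. With genotype alone 0 of the 10 were called, against 0.619% of all genes (0.261% higher and 0.358% lower), and 2 of the 10 had an unadjusted p under 0.05. Before adjustment Bach1 and Cbfa2t3 in D45/KO lay above every WT/WT library, as 6.84% of all genes did. Lmo2 and Nfe2, in contrast, had log2 fold changes of −0.30 ± 0.32 and −0.21 ± 0.30 with Cd79a and −0.87 ± 0.78 and −0.75 ± 0.83 with genotype alone, none of them called. The remaining values with Cd79a were 0.81 ± 0.40 for Zfpm1, 0.60 ± 0.22 for Ldb1, 0.32 ± 0.28 for Tal1 and −0.15 ± 0.36 for Gfi1b, and these were not called either (adjusted p from 0.161 to 0.890). The 3 calls depended on single libraries: without WT/WT replicate 1 or 2 there were 0 of them, without D45/KO replicate 3 or WT/WT replicate 3 there was 1 in each case, and without D45/KO replicate 2 or 4 there were 2. Without WT/WT replicate 1, Ldb1 was called instead, at 0.89 (adjusted p = 0.0414). The adjusted p of a lost call ran from 0.0521 to 0.114. Comparisons with WT/KO and with WT/WT share the D45/KO libraries and are not independent of each other.

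Whether D45 acts differently beside a knockout allele than beside a wild-type allele was tested as the difference of the 2 effects, D45/KO minus WT/KO less WT/D45 minus WT/WT. For Bach1 that difference was 1.66 ± 0.29 on the log2 scale with Cd79a (adjusted p = 0.0149), made up of 1.34 ± 0.18 beside KO and −0.32 ± 0.22 beside WT. Bach1 was 1 of 25 genes called in this test, 0.186% of those tested (0.134% higher and 0.0522% lower), and the only 1 of the 10. Cbfa2t3 had a difference of 1.56 ± 0.54, Nfe2 0.92 ± 0.41, Lyl1 0.91 ± 0.28, Tal1 0.88 ± 0.38 and Gata1 0.86 ± 0.33, and none of these was called (adjusted p from 0.277 to 0.481). Nor were the values of 0.84 ± 0.54 for Zfpm1, 0.60 ± 0.44 for Lmo2, 0.27 ± 0.50 for Gfi1b and −0.14 ± 0.30 for Ldb1. With genotype alone 0 of the 10 were called, against 0.00746% of all genes, and the value for Bach1 was 1.51 ± 0.52 (adjusted p = 1). The Bach1 call was lost without WT/D45 replicate 1 or 3 or WT/WT replicate 2 or 3, with adjusted p from 0.0509 to 0.0910.

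In the other genotypes 0 of the 10 genes were called in either fit. D45/D45 against WT/WT gave 0.343% of all genes called with Cd79a, 0.0746% higher and 0.269% lower, and 0% with genotype alone, and the largest log2 fold changes of the set with Cd79a were 0.63 ± 0.42 for Cbfa2t3 and 0.57 ± 0.23 for Ldb1, with Lmo2 lowest at −0.47 ± 0.34. Ldb1 was at 115, 115 and 111 CPM in D45/D45 and at 106, 103 and 103 CPM in WT/D45, against 99.5, 68.7 and 60.1 CPM in WT/WT. Both D45 groups lay just above the highest WT/WT library, as 7.38% of all genes did in D45/D45 and 2.86% in WT/D45, and the adjusted p with Cd79a was 0.4996 for D45/D45 and 0.888 for WT/D45. WT/D45 against WT/WT had 0% of all genes called in both fits, and the 10 genes spanned −0.36 ± 0.34 for Lmo2 to 0.44 ± 0.23 for Ldb1 with Cd79a. WT/KO against WT/WT had 0.0373% of all genes called with Cd79a and 0% with genotype alone, and the lowest value of the set was −0.78 ± 0.28 for Nfe2 (adjusted p = 0.332 with Cd79a) and the highest 0.30 ± 0.21 for Ldb1. In the authors' deposited table, which compares WT/WT over WT/KO, Nfe2 had a log2 fold change of 1.21, Lmo2 of 0.90 and Tal1 of 0.77, each with an adjusted p of 0.853. D45/KO against D45/D45 had 0.0671% of all genes called with Cd79a, 0.00746% higher and 0.0597% lower, and 0.00746% with genotype alone. With Cd79a all 10 genes were above 0 there, from 0.03 ± 0.22 for Ldb1 to 1.10 ± 0.41 for Cbfa2t3, each with an adjusted p of 1. With genotype alone only 3 of the 10 were above 0, with a median of −0.15. Lmo2 was then lowest at −0.77 ± 0.78, so the direction of most of these genes turned with the covariate.

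After adjustment to the mean Cd79a level of the 18 libraries, the D45/KO libraries lay above all WT/KO libraries for 5 of the 10 genes, Gata1, Tal1, Bach1, Lyl1 and Cbfa2t3, against 5.94% of all genes, and below for none of the 10, against 3.61%. In Cd79a-poor libraries the adjustment rests on few Cd79a counts. D45/D45 replicate 2 and WT/KO replicate 4 had 0, and their log2 CPM of −4.21 was set by the prior count of 2. For Tal1, D45/KO replicate 4 and WT/KO replicate 5 had 17 and 12 Cd79a counts. Their Tal1 levels were 1484 and 1501 CPM unadjusted, and 9.92 and 9.89 in adjusted log2 CPM. Adjusted log2 CPM of Gata1 averaged 9.11 ± 0.10 in D45/KO and 8.07 ± 0.44 in WT/KO, and 8.26 ± 0.04 in WT/WT (SD, n = 4, 5 and 3). For Bach1 it averaged 6.91 ± 0.24 in D45/KO, 5.58 ± 0.20 in WT/KO and 6.04 ± 0.22 in WT/WT (SD, n = 4, 5 and 3). D45/KO lay above all WT/WT libraries for Gata1, Bach1, Lyl1 and Cbfa2t3, against 10.6% of all genes. D45/D45 was intermediate in mean for these 4 genes, at 8.70 ± 0.23 for Gata1, 6.38 ± 0.26 for Bach1, 7.76 ± 0.13 for Lyl1 and 6.96 ± 0.30 for Cbfa2t3 (SD, n = 3 each), and its differences from either side were not called. Before adjustment the mean log2 CPM of D45/D45 was above that of D45/KO for Gata1 (9.08 and 8.92) and Lyl1 (8.10 and 8.01). It was below that of D45/KO for Bach1 (6.61 and 6.80) and Cbfa2t3 (7.28 and 7.87). After adjustment D45/D45 lay above WT/WT throughout for Gata1, Ldb1, Bach1, Lyl1 and Cbfa2t3, against 11.1% of all genes.

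**Figure D4:**
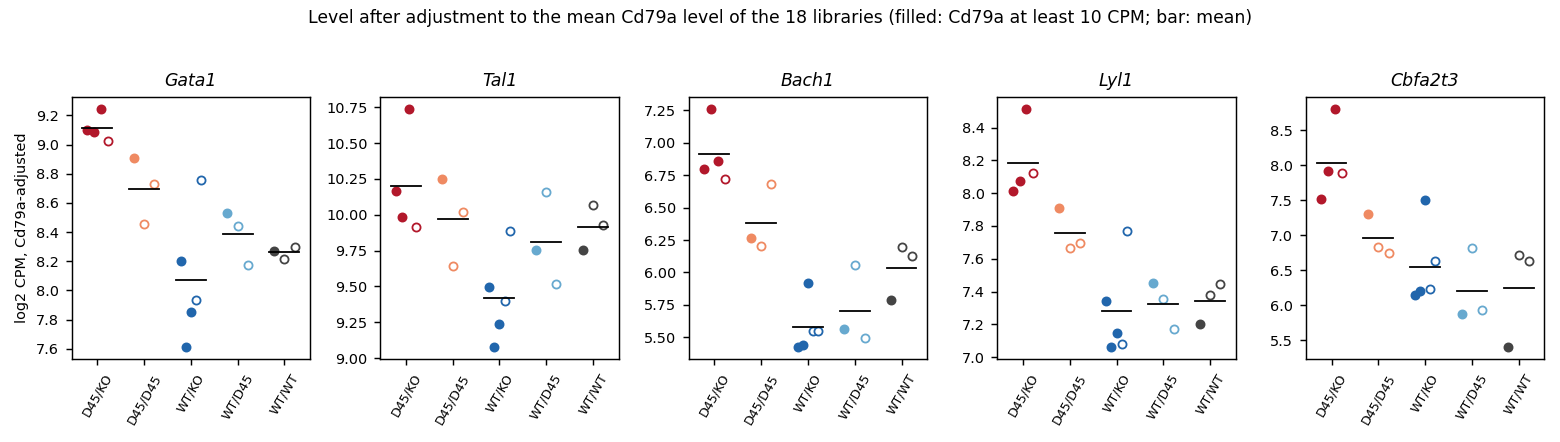
Log2 CPM of 5 of the genes after adjustment to the mean Cd79a level of the 18 libraries, by genotype, with bars at the mean and filled points for libraries with at least 10 CPM of Cd79a. D45/KO lies above every WT/KO library in all 5 panels, and Gata1 averages 9.11 in D45/KO, 8.07 in WT/KO and 8.26 in WT/WT.

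Partners of the complex were read from lists of related genes, with the Cd79a covariate unless stated. With genotype alone 0 genes of the 9 partner, factor and target lists were called in D45/KO against WT/KO or against WT/WT. Of 12 tested partners of the LIM-domain complex, 1 was higher in D45/KO than in WT/KO: Ssbp2, whose product stabilises LDB1. Ssbp2 was at 97.7, 123, 120 and 154 CPM in D45/KO, against 18.7, 18.9, 16.3, 75.4 and 59.9 CPM in WT/KO and 19.3, 19.9 and 64.3 CPM in WT/WT. Every D45/KO library exceeded all of these. The log2 fold change of Ssbp2 in D45/KO was 2.03 ± 0.27 over WT/KO (adjusted p = 3.99e-04) and 2.18 ± 0.33 over WT/WT, and its difference between D45 beside KO and D45 beside WT was 2.19 ± 0.43 (adjusted p = 0.0408). Against WT/WT, Tcf12, a helix-loop-helix partner of TAL1 (1.04 ± 0.25), and Runx1, a factor bound near the complex (0.77 ± 0.21), were also higher, so 3 of 12 were called higher and 0 lower. The list median was 0.50 over WT/KO and 0.47 over WT/WT, beside −0.03 and 0.07 for all genes.

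Among 9 small Maf, CNC and Bach partners, Nfe2l2, which encodes the BACH1 competitor NRF2, was higher in D45/KO than in WT/KO with a log2 fold change of 0.83 ± 0.20 (adjusted p = 0.0305). It was the only 1 of the 9 called there, the list median was −0.22, and 0 were called against WT/WT. None of 15 corepressor genes that work with GFI1B and FOG1 was called in either comparison, with Kdm1a, which encodes LSD1, at 0.21 ± 0.19 over WT/KO. The 15 had a median of 0.18 over WT/KO and 0.41 over WT/WT. Of 9 coactivators 0 were called against WT/KO and 2 were higher against WT/WT, the acetyltransferases Ep300 (1.35 ± 0.34) and Crebbp (1.24 ± 0.34). In a list of 16 other erythroid and stem cell factors 0 were called against WT/KO and 1 was lower against WT/WT, Klf3, a repressive KLF family member (−1.39 ± 0.23).

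Of 21 tested GATA1-activated erythroid genes, 0 were higher and 1 was lower in D45/KO against WT/KO, with a list median of 0.47, and 0 were higher and 2 lower against WT/WT, with a list median of −0.12. Of all genes tested 3.19% were called over WT/KO and 3.68% over WT/WT. The 2 were Epb4.9, which encodes dematin of the membrane skeleton, and Slc25a38, the mitochondrial glycine carrier (−1.43 ± 0.28 over WT/WT). Epb4.9 was at 100.4, 110.5, 226 and 349 CPM in D45/KO, against 296, 261, 324, 1336 and 1571 CPM in WT/KO and 665, 1906 and 1773 CPM in WT/WT, with log2 fold changes of −1.65 ± 0.29 over WT/KO and −2.62 ± 0.32 over WT/WT. Slc4a1, the band 3 anion exchanger, was not called at 0.47 ± 0.42 over WT/KO or −0.12 ± 0.48 over WT/WT. Of 11 genes that are repressed as GATA1 replaces GATA2, 1 was lower against WT/KO, Vim (−2.02 ± 0.42), which encodes vimentin and was highest in the Cd79a-rich WT/KO libraries. In that list 2 of 11 were above 0 with a median of −0.95, beside −0.03 for all genes, and all 11 slopes with Cd79a were above 0, 8 of them called. In the 4-gene list of haem-regulated translation 0 were called against WT/KO and 1, Atf4 (−0.74 ± 0.19), was lower against WT/WT.

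Of 15 genes that BACH1 represses or NRF2 activates, 3 were higher in D45/KO than in WT/KO and 0 lower, with a list median of 0.30. They were Srxn1, sulfiredoxin (1.48 ± 0.28, adjusted p = 0.00646), Gclm, a subunit of the enzyme that begins glutathione synthesis (1.22 ± 0.29), and Txnrd1, thioredoxin reductase (0.82 ± 0.20). Srxn1 was at 52.1, 50.3, 36.9 and 81.0 CPM in D45/KO, against 14.1, 10.1, 7.60, 44.5 and 50.7 CPM in WT/KO and 22.7, 86.5 and 54.7 CPM in WT/WT. The D45/KO libraries overlapped both groups before adjustment. For Srxn1 the difference between D45 beside KO and D45 beside WT was 2.33 ± 0.45 (adjusted p = 0.0332). Hmox1, haem oxygenase and the best known BACH1 target, was not called at −0.23 ± 0.71 over WT/KO. Against WT/WT 0 of the 15 were called and the list median was −0.18.

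Megakaryocytes use Gata1, Tal1, Gfi1b, Nfe2, Zfpm1 and Cbfa2t3 as well, and 3 of 9 tested megakaryocyte markers were higher in D45/KO than in WT/KO with Cd79a. The 11 markers summed to 431 to 819 CPM in D45/KO, 216 to 619 CPM in D45/D45, 60.1 to 265 CPM in WT/KO, 47.7 to 175 CPM in WT/D45 and 38.0 to 207 CPM in WT/WT. Most of that was Itga2b (CD41), also expressed by early haematopoietic progenitors, at 324, 415, 405 and 654 CPM in D45/KO, against 27.0, 28.3, 18.8, 149.9 and 137 CPM in WT/KO. Of the 9 markers tested, Itga2b (3.18 ± 0.43), Vwf (1.56 ± 0.34) and Gp9 (1.15 ± 0.29) were higher in D45/KO than in WT/KO with Cd79a, 0 were lower, 5 were above 0 and the median was 0.01. With genotype alone 0 of the 9 were called and the median was −0.68. Pf4, a platelet chemokine, was at most 0.404 CPM in D45/KO against 0.934 CPM in WT/KO, and was not called. The part of these transcripts in the levels of the 10 genes was not tested. Of the erythroblast markers, 1 of 11 was called in the same comparison, Rhag, the Rh-associated glycoprotein (0.99 ± 0.24), with 9 of 11 above 0 and a median of 0.57, and 0 were called against WT/WT, with a median of 0.06. Of 10 T and NK cell markers 1, Lck, was lower in D45/KO against WT/KO (−1.11 ± 0.25) and against WT/WT (−1.49 ± 0.29), and 0 of the 10 macrophage and 0 of the 10 neutrophil markers were called in either. None of the 10 T and NK cell markers was above 0 over WT/KO, where their median was −1.05, and they summed to 7.93 to 39.9 CPM in D45/KO against 14.9 to 115 CPM in WT/KO. Neutrophil markers had a median of 1.49 over WT/KO and −1.85 over WT/WT, and macrophage markers −0.08 and 0.54. The part of these cell types in the levels of the 10 genes was not tested.

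Among themselves, the genes did not vary as 1 block. Pearson correlations of log2 CPM were taken separately over the 9 Cd79a-rich and the 9 Cd79a-poor libraries, which share genotypes and library scaling, and are given as a description. Of 45 pairs 18 had r above 0.50 in both sets. The closest were Gata1 and Lyl1 (0.97 in Cd79a-rich and 0.97 in Cd79a-poor libraries) and Lmo2 and Nfe2 (0.91 and 0.94). Zfpm1 with Lyl1, Lyl1 with Cbfa2t3 and Bach1 with Cbfa2t3 had lower values of 0.81, 0.78 and 0.76 over the 2 sets. For Ldb1, which is thought of as the scaffold of the complex, r with Lmo2 was 0.52 in the Cd79a-rich and −0.62 in the Cd79a-poor libraries. With Gata1 the r of Ldb1 was 0.71 and 0.80, and with Lyl1 0.66 and 0.69. In 17 of the 45 pairs the lower of the 2 values was below 0. All of these pairs held Lmo2, Nfe2 or Gfi1b, and 2 of them held Ldb1.

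Outside the set, the 2 genes most like each factor were those with the highest values of the lower of the 2 correlations, among 7483 genes with a mean of at least 5 CPM. For Gata1 they were Mfsd2b, which exports sphingosine 1-phosphate from red cells (0.98), and B4galt1 (0.97), and for Tal1 Rhag (0.94) and Abcg2 (0.93). Lmo2 was closest to Sertad2 (0.96) and Xpo7 (0.95), Nfe2 to Urod, a haem synthesis enzyme (0.95), and Serinc3 (0.94), Zfpm1 to Add2, an adducin of the membrane skeleton, and Dnajb1 (both 0.91), and Ldb1 to Senp3 and Fads2 (both 0.94). Gfi1b was closest to Polr2j, an RNA polymerase II subunit (0.91), and Tlk1 (0.87), Bach1 to Htatip2 and Slc23a1 (both 0.90), Lyl1 to Gcdh and Prkab1 (both 0.96), and Cbfa2t3 to Zfp790 (0.92) and Ksr1 (0.91).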

How the data were processed

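Erythroblasts sorted from spleen were sequenced from total RNA with Trizol and a Swift Rapid kit, according to the labels. HISAT2, featureCounts, limma and mm9 are named, without versions, in the submitters' processing notes, and whether counting used strand is not stated there. As deposited, the authors' counts are whole numbers, not normalized, for 18 libraries. The authors' further table holds CPM values with log2 fold changes (WT/WT against WT/KO), p-values and adjusted p-values by the authors. From it only fold changes and adjusted p-values were used.

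Counts were fitted in R 4.3.3 with edgeR 4.0.16 (TMM, filterByExpr by genotype, quasi-likelihood, all 18 libraries), with genotype alone and with the log2 CPM of Cd79a (prior count 2) as a covariate. Benjamini-Hochberg adjustment covered all 13405 genes, and a gene was called at an adjusted p under 0.05. SEs are the absolute log2 fold change over the square root of F, so approximate. The fit was tested on simulated data. Alternatives included DESeq2 1.42.0 and limma 3.58.1 (voom). All 10 genes are covered in each comparison, by name or by their range, as are list genes that were called (the 4 smallest adjusted p per list) or, with no call, the most abundant. A few others (Kdm1a, Slc4a1, Hmox1, Pf4) were named after their values were seen. The members and lists were chosen with earlier results of these data known. Exon lengths come from GENCODE on GRCm38 and are not the lengths used in the authors' counting on mm9.

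Depth of 9.36 to 56.3 (in units of 1e+06 counts) gave between 516 and 58380 counts for each of the 10 genes and Klf1 in every library, so counting error is small beside the spread between libraries.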

Additional observations from a re-analysis of the deposited data

Results flagged for a closer look

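For Bach1, the difference between the D45 effect beside a knockout allele and beside a wild-type allele was called with the Cd79a covariate and not with genotype alone. With the Cd79a covariate the difference of the 2 effects was 1.66 ± 0.29 on the log2 scale, by edgeR's quasi-likelihood test with an adjusted p of 0.0149 over 13405 genes. Bach1 was higher in D45/KO than in WT/KO by 1.34 ± 0.18, and differed by −0.32 ± 0.22 in WT/D45 against WT/WT. All 4 D45/KO libraries exceeded all 5 WT/KO libraries, while WT/D45 and WT/WT libraries overlapped. With Cd79a the call was kept in 11 of 15 fits that each left out 1 library, and it was lost with DESeq2 size factors. The difference was 1.51 ± 0.52 with genotype alone and was then not called (adjusted p = 1). Of 20 checks for a single library far from the rest, 10 genes in each of the D45/KO and WT/KO groups, 0 met the limit.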

How the results depend on the processing

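Of 3270 repeats of a single gene's value under another setting, 3151 kept the direction and side of the threshold, or were not called either way with a changed sign in 333 of them. A call was lost in 68 and gained in 46. The counts of called genes that follow were not set beside the share of all genes called in the same fit. They therefore do not compare the 10 genes with other genes. Of the 10 genes, the number called in D45/KO against WT/KO with genotype alone, 0, became 1 with DESeq2, 1 with the labels' mouse number (under 200 or not) as a term, 4 with the mean of 13 B cell markers as covariate and 6 in the Cd79a-rich libraries alone. In covariate fits chosen after seeing the data it was 1 with the erythroblast marker mean and 5 with Cd79a as a 2-level term. Against WT/WT the count of 0 became 4 with the B cell marker mean, the erythroblast marker mean or the 2-level term and 1 in the Cd79a-poor libraries, and the difference of the D45 effects became 1 with each of those 3 covariates.

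With the Cd79a covariate, the 4 calls of D45/KO against WT/KO became 1 with only the genotypes compared and 0 in Cd79a-rich libraries. The 1 call with the erythroblast marker mean, given above, comes from a fit with that mean in place of Cd79a, not beside it. The 3 calls against WT/WT became 1 with DESeq2 size factors, 1 in Cd79a-poor libraries, 0 in Cd79a-rich libraries and 0 with only the genotypes compared. The 1 call for the difference of the D45 effects became 2 with DESeq2 and 0 with DESeq2 size factors or in either set of libraries, and the 9 slopes called became 0 in either set. These restricted fits hold 9 libraries, with some genotypes at 1 library that is assumed to vary like the others, and otherwise the cause was not tested. DESeq2 size factors lowered the median of all genes with Cd79a by about 0.1, to −0.13 from −0.03, in D45/KO against WT/KO. Leaving out each library gave 3 to 5 calls for D45/KO against WT/KO, 0 to 3 against WT/WT, 0 to 1 for the difference and 9 for the slope with Cd79a, and 0 throughout with genotype alone.

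The direction turned for Nfe2 in D45/KO against WT/KO with genotype alone (1.52 in the Cd79a-rich libraries), and for slopes of Zfpm1 (0.0292), Bach1 (0.0222) and Cbfa2t3 (0.0231) in the Cd79a-poor and Bach1 (0.16) in the Cd79a-rich libraries.

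Replicate numbers did not pair the libraries throughout. Correlations of deviations exceeded 0.1 in 10 of 10 pairs of number 1 and 1 of 1 of number 4. They did so in 4 of 10 of number 2 and 3 of 10 of number 3. The libraries of number 1 were all Cd79a-rich, with mouse numbers under 200. With the replicate block, 2 of the 10 genes were called in D45/KO against WT/KO with genotype alone and 0 in D45/KO against WT/WT with Cd79a.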
